A study of Mus musculus with 7 samples.

Results

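The CXC chemokine ligands described here are 8 secreted or membrane-bound attractants of leukocytes, taken by symbol from the 26130 genes of a count table of mouse lung monocytes: Cxcl1, Cxcl2, Cxcl3, Cxcl9, Cxcl10, Cxcl11, Cxcl16 and Pf4. All 8 had counts, and all 8 passed the filter on low counts, as did 13665 genes in all. Polyadenylated RNA was sequenced from cells sorted from digested lungs of Fth1-mScarlet x Lyz2GFP mice, which carry a red reporter of the ferritin heavy chain gene Fth1 and a GFP reporter of lysozyme, and every group carries both alleles. The sort took Lyz2GFP+CD11b+Ly6C+Ly6G- cells, a surface gate for monocytes and their descendants that leaves out neutrophils. Cells with low Fth1-mScarlet signal came from untreated mice (untreated Fth1-low, n = 2) and from mice given 20 µg of E. coli lipopolysaccharide (LPS) in 50 µl into the trachea 3 days earlier (LPS Fth1-low, n = 2). Cells with high signal came from mice given LPS in the same way (LPS Fth1-high, n = 3). The sources used here give neither age nor sex, nor whether a replicate was 1 mouse or a pool. The p-values therefore cover the spread among these libraries only, and part of it may be technical. No untreated cells with high signal were analysed here, so a comparison of LPS Fth1-high with untreated cells mixes treatment with gate.

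CXC chemokines are small proteins that bind G protein-coupled receptors on leukocytes and glycosaminoglycans on vessel walls and matrix, so that cells move up their gradient. Cxcl1, Cxcl2 and Cxcl3 act through Cxcr2 and draw neutrophils into inflamed lung, and their genes are classical targets of NF-kB downstream of Toll-like receptors. Cxcl9, Cxcl10 and Cxcl11 are induced by interferons and draw activated T cells and NK cells through Cxcr3. Cxcl16 is made as a transmembrane protein that also takes up oxidised lipoprotein, binds Cxcr6 on T cells and is released by the proteases Adam10 and Adam17. Pf4, platelet factor 4, is stored in platelet granules and binds heparin-like chains.

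Of the 8 genes, 7 lie on mouse chromosome 5. In build mm10 (GRCm38, GENCODE vM21), Pf4 (90772435 to 90773383, plus strand), Cxcl3 (90786103 to 90789600, plus), Cxcl1 (90891241 to 90893115, plus) and Cxcl2 (90903871 to 90905938, plus) form one cluster, in which Pf4 and Cxcl3 are 12.7 kb apart and Cxcl1 and Cxcl2 10.8 kb. The next member in the same direction, Cxcl9 (92321347 to 92328079, minus strand), is 1415.4 kb beyond Cxcl2. It opens a second cluster, with Cxcl10 (92346638 to 92348889, minus) 18.6 kb on and Cxcl11 (92359544 to 92365485, minus) another 10.7 kb on. Cxcl16 stands alone on chromosome 11 (70453983 to 70459984, minus). The annotation calls Cxcl11 a polymorphic pseudogene in the reference strain and the other 7 protein-coding, so for Cxcl11 the counts are of transcript and say nothing of protein.

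The bases just before the transcript start are shown for the members that changed together, because these genes are textbook examples of inducible promoters. RefSeq's promoter table (GRCm38.p6) held 6 of the 8 members, namely all but Cxcl11 and Cxcl16. Below are 81 bases around a stretch that Cxcl1 (chr5:90891139-90891219), Cxcl2 (chr5:90903767-90903847) and Cxcl3 (chr5:90785993-90786073) share, on the plus strand, with the shared letters in capitals.
Cxcl1: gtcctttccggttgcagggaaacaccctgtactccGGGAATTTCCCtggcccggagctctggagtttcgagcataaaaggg
Cxcl2: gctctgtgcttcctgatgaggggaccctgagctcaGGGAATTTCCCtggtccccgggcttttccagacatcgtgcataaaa
Cxcl3: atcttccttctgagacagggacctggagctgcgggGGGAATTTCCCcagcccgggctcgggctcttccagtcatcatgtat
The shared letters, GGGAATTTCCC, lay 61 to 71 bases before the start in Cxcl1, 87 to 97 in Cxcl2 and 63 to 73 in Cxcl3. Over the whole 81-base windows, these letters included, 45.7% of positions were identical between Cxcl1 and Cxcl2, 43.2% between Cxcl1 and Cxcl3 and 35.8% between Cxcl2 and Cxcl3. The stretch is 2 overlapping matches, 1 on each strand, to the NF-kB-like pattern, GGGA followed by any 4 letters and CC. Its 11 letters occurred in 12 of 32851 promoters of the table (0.0365%), a count made after the stretch was seen, whereas the pattern itself occurred on either strand in 17.6%. Cxcl1 held a further match, GGGAAACACC, 81 to 90 bases before its start.

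The interferon-induced ligands had other arrangements. The 250 bases before Cxcl9 (chr5:92328080-92328329) and Cxcl10 (chr5:92348890-92349139) follow, both on the minus strand and written 5′ to 3′ along the transcript, with pattern matches in capitals.
Cxcl9: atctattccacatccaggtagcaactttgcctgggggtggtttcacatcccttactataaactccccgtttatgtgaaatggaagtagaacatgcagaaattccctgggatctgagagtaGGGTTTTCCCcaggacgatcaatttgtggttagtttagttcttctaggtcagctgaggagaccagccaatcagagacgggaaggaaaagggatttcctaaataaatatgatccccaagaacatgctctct
Cxcl10: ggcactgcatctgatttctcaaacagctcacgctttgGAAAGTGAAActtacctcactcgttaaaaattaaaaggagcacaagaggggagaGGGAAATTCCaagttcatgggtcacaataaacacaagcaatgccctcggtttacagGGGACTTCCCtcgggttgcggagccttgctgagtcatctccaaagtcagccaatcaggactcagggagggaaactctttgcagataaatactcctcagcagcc
Cxcl10 held GAAAGTGAAA 204 to 213 bases before its start, a match to the ISRE-like pattern, GAAA, any 2 letters and GAAA, which interferon-activated factors are known to bind and which occurred in 2.98% of promoters. It also held NF-kB-like matches at 150 to 159 and at 94 to 103 bases, GGGAAATTCC and GGGACTTCCC. In Cxcl9 the NF-kB-like match was on the opposite strand, read here as GGGTTTTCCC at 121 to 130 bases. None of the 3 patterns matched in the Pf4 window, and the GAS-like pattern, TTC, any 3 letters and GAA, found in 7.02% of promoters, matched in none of the 6 windows. A match describes letters only, and no binding was measured.

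**Figure D1:**
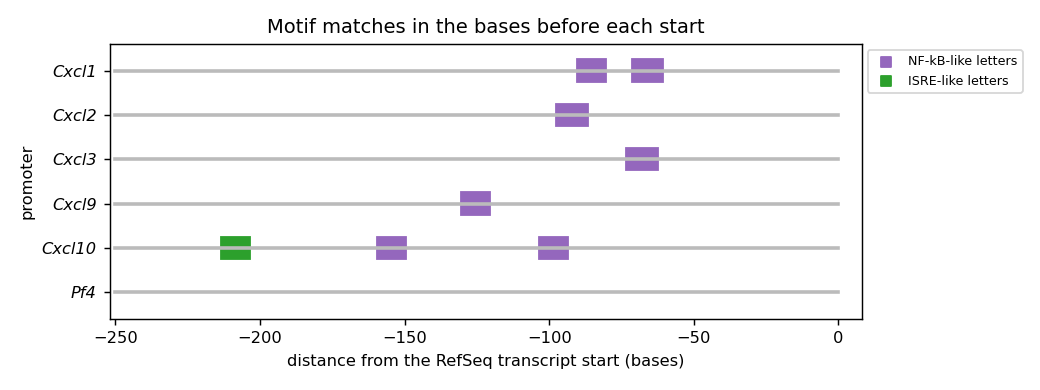
Positions of pattern matches in the 250 bases before the RefSeq start of 6 ligand genes, with the x axis in bases from the start and 1 line per gene. Cxcl1, Cxcl2 and Cxcl3 each carry NF-kB-like letters within 97 bases of the start, and only the Cxcl10 line among these 6 carries an ISRE-like match.

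Replicate 1 of the LPS Fth1-low group was far shallower than the rest, with 637787 counts in all against 10459703 to 27997007, and it also had the highest share of ribosomal RNA genes, 18.7% of its counts against 0.631% to 8.33%. In that library 3 counts correspond to 5.02 CPM (counts scaled to a common library size with TMM factors), against 0.106 to 0.280 CPM elsewhere. Fth1 itself was 13231, 20999.8 and 20473 CPM in the LPS Fth1-high gate, 2969.9 and 4825 CPM in the LPS Fth1-low gate and 1786 and 1672 CPM without LPS, in the order of the gates. The summed level of 8 monocyte and myeloid markers was 12211 to 19212 CPM in the 7 libraries. No library held more than 2 counts of Ly6g. Epithelial markers (8 genes) summed to 700.4 and 4.29 CPM in the untreated pair and to 11.9 to 98.1 CPM in LPS libraries. Fibroblast markers (5 genes) summed to 127 and 19.7 CPM in the LPS Fth1-low pair and to 5.87 to 57.1 CPM elsewhere. Endothelial (6 genes) and B cell (5 genes) sums ran from 28.2 to 285 CPM and from 5.73 to 87.1 CPM. The part of such cells in the ligand levels was not tested. In bulk RNA, fewer cells of a type and less RNA per cell cannot be told apart.

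Per kilobase of exon, the ligand mixture differed between the 3 groups. In untreated Fth1-low cells Cxcl2 was the most abundant at 39.2 ± 18.9 RPKM (SD, n = 2), followed by Cxcl10 at 15.4 ± 0.759 RPKM, whose range did not overlap that of Cxcl2. Cxcl9 and Cxcl16 (3.88 and 3.63 RPKM) overlapped each other, as did Pf4 and Cxcl1 (1.62 and 1.44 RPKM), and Cxcl3 and Cxcl11 were last at 0.0519 and 0.0123 RPKM, also overlapping. The range of Pf4 also reached into that of Cxcl9. LPS Fth1-low cells had Cxcl10 (392 ± 27.6 RPKM), Cxcl9 (354 ± 5.65) and Cxcl2 (295 ± 119) at the top, where the range of Cxcl2 overlapped both others. Cxcl16 followed at 118 ± 34.8 RPKM, then Cxcl1, Cxcl11 and Cxcl3 at 9.14, 7.78 and 2.56 RPKM, and Pf4 at 0.785 RPKM. The ranges of Cxcl1 and Cxcl11 overlapped. In LPS Fth1-high cells the order was Cxcl2 (717 ± 144 RPKM, n = 3), Cxcl16 (295 ± 32.7), Cxcl10 (151 ± 36.4) and Cxcl9 (142 ± 30.1), the last 2 overlapping. Below them stood Cxcl1 at 37.9 ± 9.11 RPKM, Cxcl3 at 22.5 ± 17.1, Pf4 at 8.41 ± 7.79 and Cxcl11 at 1.49 ± 0.41. Here the range of Cxcl3 overlapped those of Cxcl1 and Pf4.

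**Figure D2:**
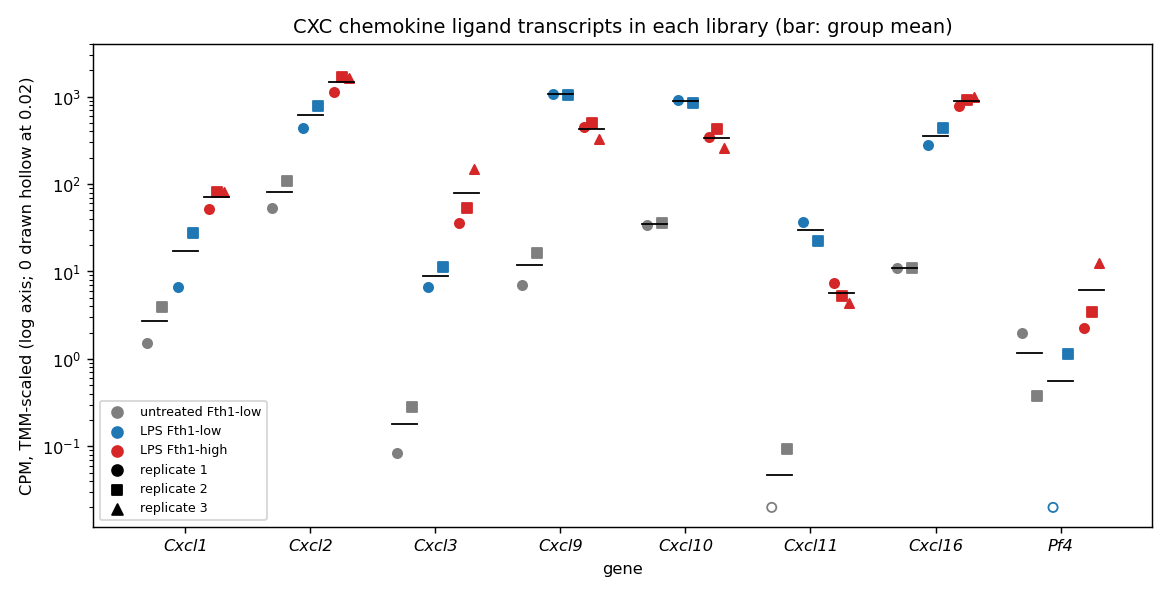
Level of each ligand in each library, in TMM-scaled CPM on a log axis, coloured by group and shaped by replicate, with a bar at the group mean and zeros drawn as hollow points at the foot. Cxcl2 was at 53.4 and 109 CPM in untreated libraries and at 1139.9 to 1672 CPM in LPS Fth1-high libraries, while Cxcl9 was highest in the LPS Fth1-low libraries, at 1079.8 and 1056 CPM.

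After LPS, 7 of the 8 ligands were higher in Fth1-low cells than in untreated Fth1-low cells, and Pf4 was the exception. Among all genes tested, 2.99% were called higher in this comparison, 0.629% lower and 3.62% either way. The groups did not overlap for those 7 ligands, which held for 39.5% of all genes. The fitted log2 differences of the members had a median of 4.85, against -0.05 over all genes, and a gene was called where its Benjamini-Hochberg adjusted p from edgeR's quasi-likelihood test was below 0.05. In LPS Fth1-high against untreated Fth1-low cells 7 of 8 were also called higher, where 12.4% of all genes were called higher, 11.9% lower and 24.3% either way. The groups did not overlap for any of the 8, which held for 58.1% of all genes, and the medians were 5.01 and 0.03. These 2 comparisons share the untreated libraries. In those, Cxcl3 had 2 and 3 counts and Cxcl11 had 0 and 1, so both passed the filter only through LPS libraries. A gene that passes in this way can hardly be called lower after LPS. The calls of Cxcl3 and Cxcl11 among the 7, and their part in the medians, are therefore no independent support. Between the LPS groups the family split: Cxcl3 and Cxcl16 were called higher in Fth1-high cells, where 3.68% of all genes were, and Cxcl9, Cxcl10 and Cxcl11 were called lower, where 4.57% were, with 8.25% called either way. Cxcl1, Cxcl2 and Pf4 did not pass. The observed values of the groups did not overlap for any of the 8 in that comparison, which held for 41.3% of all genes. For Pf4 this is not established, since the shallow LPS Fth1-low replicate 1 had 0 counts of it. In that library 3 counts are 5.02 CPM, above Fth1-high values of 2.26 and 3.41 CPM. Cxcl1 and Cxcl3 rest on 4 counts each there, also in the comparison of LPS Fth1-low with untreated cells.

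Among the neutrophil attractants, Cxcl2 was the most abundant in every group. Its level was 53.4 and 109 CPM in untreated Fth1-low, 435 and 784 CPM in LPS Fth1-low, and 1139.9, 1672 and 1638 CPM in LPS Fth1-high libraries. The 3 groups therefore lay one above the other with no overlap. Cxcl2 rose by 2.93 ± 0.42 (log2, SE) from untreated to LPS Fth1-low cells (adjusted p = 0.0046) and was 4.20 ± 0.44 higher in LPS Fth1-high than in untreated cells (adjusted p = 0.00013). Its difference between the LPS groups, 1.27 ± 0.38 higher in Fth1-high cells, had an adjusted p of 0.074 and was not called. Of 18 alternatives, 14 left it not called and 4 called it. The latter were DESeq2 (adjusted p = 0.002), voom with sample quality weights (0.041), no filter beyond 1 count (0.047) and the replicate number as a block (0.0052). It was 0.90 without the shallow LPS Fth1-low replicate 1. Without LPS Fth1-high replicates 2 and 3 it was 1.16 and 1.19 (adjusted p = 0.18 and 0.17). Without untreated replicate 1 the rise from untreated to LPS Fth1-low cells was 2.49 and no longer called. Without untreated replicate 2 the differences from untreated cells were 3.54 and 4.80, both called.

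Cxcl1, the mouse keratinocyte-derived chemokine, had 1.5 and 3.92 CPM in untreated libraries, 6.7 CPM (4 counts) and 27.6 CPM in the LPS Fth1-low pair and 51.4, 80.7 and 81.1 CPM in LPS Fth1-high libraries. Again no group overlapped another, though the lower LPS Fth1-low value rests on 4 counts. Cxcl1 rose by 3.12 ± 0.56 in LPS Fth1-low cells (adjusted p = 0.017) and was 4.81 ± 0.54 above untreated cells in LPS Fth1-high cells (adjusted p = 0.00029). Between the LPS groups it was 1.70 ± 0.48 higher in Fth1-high cells with an adjusted p of 0.066. The rise in LPS Fth1-low cells was 2.47 without untreated replicate 1 (adjusted p = 0.11), 1.40 without LPS Fth1-low replicate 2 (adjusted p = 0.58) and 3.88 without untreated replicate 2 (adjusted p = 0.024). With no filter beyond 1 count this call was also lost (adjusted p = 0.062). The LPS Fth1-high difference from untreated cells was 4.18 and 5.57 without untreated replicates 1 and 2. The difference between the LPS groups was 1.70 and 1.69 without untreated replicates 1 and 2. It was 1.35 without the shallow LPS Fth1-low replicate 1 and 3.42 without LPS Fth1-low replicate 2. Of 18 alternatives, 11 left it not called and 7 called it. The latter included DESeq2 (adjusted p = 0.0018), limma-voom (0.047), a fit of the 2 groups alone (0.047) and the fit without LPS Fth1-high replicate 1. Without LPS Fth1-high replicate 2 or 3 it was 1.62 and not called (adjusted p = 0.17 each).

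Cxcl3 was nearly absent from untreated cells, with 2 and 3 counts (0.0833 and 0.28 CPM). It had 6.7 CPM (4 counts) and 11.2 CPM in the LPS Fth1-low pair and 35.4, 53.3 and 147 CPM in LPS Fth1-high libraries. The last of these was the highest of the 7 by far, and no groups overlapped. The fitted log2 difference was 9.0 ± 1.02 between LPS Fth1-high and untreated cells (adjusted p = 0.00057), 6.07 ± 1.1 between LPS Fth1-low and untreated cells (adjusted p = 0.026) and 2.92 ± 0.71 between the LPS groups (adjusted p = 0.049). This last call was just inside the threshold and was lost in 11 of 18 alternatives, with an adjusted p of up to 0.22, including without either untreated or either LPS Fth1-low library and without LPS Fth1-high replicate 2. Without LPS Fth1-high replicate 3, the highest, the difference was 2.13 with an adjusted p of 0.015, and without LPS Fth1-low replicate 2 it was 3.56 (adjusted p = 0.22). The rise in LPS Fth1-low cells was lost without any 1 of the 4 libraries compared: 5.17 and 6.87 without untreated replicates 1 and 2, 6.23 and 5.43 without LPS Fth1-low replicates 1 and 2 (adjusted p = 0.22, 0.12, 0.082 and 0.36). It was also lost with limma-voom (0.34), with voom and sample quality weights (0.6) and with no filter beyond 1 count (0.17). Against untreated cells the LPS Fth1-high difference was lost with voom and sample quality weights (adjusted p = 0.064), and it was 8.10 and 9.78 without untreated replicates 1 and 2 and 8.14 without LPS Fth1-high replicate 3, called each time.

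Cxcl2 supplied 97.1% and 96.3% of the Cxcl1, Cxcl2 and Cxcl3 counts in untreated cells, 97% and 95.3% in LPS Fth1-low cells and 92.9%, 92.6% and 87.8% in LPS Fth1-high cells. The first 2 groups overlapped, and the Fth1-high shares lay below both. The share of Cxcl3 was 0.151% and 0.248% in untreated, 1.49% and 1.36% in LPS Fth1-low and 2.89%, 2.95% and 7.88% in LPS Fth1-high libraries, with no overlap. Summed neutrophil markers (10 genes) were 412 and 449 CPM in untreated, 656 and 698 CPM in LPS Fth1-low and 375 to 408 CPM in LPS Fth1-high libraries, highest where these ligands were intermediate. Most of this sum was Csf3r, at 299 and 356, 497 and 366, and 272 to 330.3 CPM. S100a8 was at 11.6 and 5.5, 63.6 and 82, and 34.4 to 87.9 CPM in the same order of groups. S100a9 was at 13.7 and 6.9, 23.4 and 48.9, and 3.65 to 11 CPM. The part of neutrophils in the ligand levels was not tested. Ly6g was at 0 in LPS Fth1-low replicate 1 and LPS Fth1-high replicates 1 and 2.

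Among the interferon-induced ligands the highest group was LPS Fth1-low for every one. Cxcl9 had 7 and 16.4 CPM in untreated, 1079.8 and 1056 CPM in LPS Fth1-low and 449, 505 and 328 CPM in LPS Fth1-high libraries. Both LPS groups stood far above the untreated one, and all 3 Fth1-high values lay below both Fth1-low values. Cxcl9 rose by 6.54 ± 0.47 in LPS Fth1-low cells (adjusted p = 9.5e-05), was 5.21 ± 0.43 above untreated in LPS Fth1-high cells (adjusted p = 3.4e-05) and fell by 1.32 on the log2 scale, with an SE of 0.33, from LPS Fth1-low to Fth1-high cells (adjusted p = 0.038). This last call was lost without any 1 of the 5 LPS libraries, with log2 differences of -1.48 to -1.16 and adjusted p of 0.056 to 0.13. Without untreated replicate 2 the differences from untreated cells were 7.27 and 5.94.

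Cxcl10, known for its strong induction by interferon gamma, had 33.6 and 36 CPM in untreated, 926 and 838 CPM in LPS Fth1-low and 342, 421 and 258 CPM in LPS Fth1-high libraries. The 3 groups were separate, and replicates within the first 2 were close. Cxcl10 rose by 4.66 ± 0.30 in LPS Fth1-low cells (adjusted p = 5.2e-05) and was 3.29 ± 0.27 above untreated in LPS Fth1-high cells (adjusted p = 3.5e-05). It was 2.59-fold lower in LPS Fth1-high than in LPS Fth1-low cells (log2 -1.37 ± 0.23, adjusted p = 0.0071), and this call held in all 18 alternatives, with an adjusted p of at most 0.031. Art3, which overlaps it on the other strand, had at most 18 counts in a library.

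Cxcl11 was the scarcest of the 3, with 0 and 1 counts in the untreated libraries. It had 36.8 CPM (22 counts) and 22.2 CPM in the LPS Fth1-low pair and 7.36, 5.2 and 4.35 CPM in LPS Fth1-high libraries. The LPS groups did not overlap, and untreated cells were near the limit of detection. Against the single untreated count, the pooled ratio was 785 for LPS Fth1-low cells (95% interval 140.2 to 31083, counting error only) and 185 for LPS Fth1-high cells (33 to 7328). The quasi-likelihood test, a separate calculation, gave adjusted p of 0.00021 and 0.00015 for these comparisons. Between the LPS groups Cxcl11 was 4.99-fold lower in Fth1-high cells (log2 -2.32 ± 0.42, adjusted p = 0.0097), a call that held in all 18 alternatives with an adjusted p of at most 0.046.

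The balance of Cxcl9 and Cxcl10 moved with LPS but was nearly the same in both gates. Cxcl9 made up 17.2% and 31.3% of the counts of the pair in untreated libraries, 53.8% and 55.8% in LPS Fth1-low and 56.8%, 54.5% and 56% in LPS Fth1-high libraries. The untreated values lay below all 5 LPS values, and the 2 LPS groups overlapped.

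Dendritic cell markers (6 genes) summed to 104 and 103 CPM in untreated and 70.3 and 71.8 CPM in LPS Fth1-low libraries. In LPS Fth1-high libraries they summed to 11.5, 11.2 and 17.3 CPM. The sum was lower where the interferon-induced ligands were lower between the LPS groups, but not between untreated and LPS cells. From untreated to LPS Fth1-low cells 3 of the 6 had positive log2 differences and 3 negative. Ccr7 was at 11.9 and 2.8 CPM in untreated, 33.5 and 20.2 CPM in LPS Fth1-low and 8.09 to 12.7 CPM in LPS Fth1-high libraries. Summed T and NK cell markers (9 genes) were 20.3 to 41.2 CPM in the 4 Fth1-low libraries and 4.63 to 13.7 CPM in the Fth1-high libraries, and Ifng among them had at most 26 counts in any library. The neutrophil marker sum given above was also highest in LPS Fth1-low libraries. Of its 9 tested genes, 2 were called lower in LPS Fth1-high than Fth1-low cells, Mmp8 among them, where 4.57% of all genes were. The part of any of these cells in the ligand levels was not tested.

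Cxcl16, the transmembrane ligand, rose stepwise through the groups, with 10.9 and 11 CPM in untreated, 283 and 432 CPM in LPS Fth1-low and 783, 913 and 977 CPM in LPS Fth1-high libraries. No groups overlapped. It rose by 5.04 ± 0.30 in LPS Fth1-low cells (adjusted p = 4e-05) and was 6.35 ± 0.32 above untreated in LPS Fth1-high cells (adjusted p = 3.4e-06). Between the LPS groups it was 2.47-fold higher in Fth1-high cells (log2 1.30 ± 0.24, adjusted p = 0.011), and all 3 calls held in all 18 alternatives, the last with an adjusted p of at most 0.047. Zmynd15 overlaps Cxcl16 on the opposite strand, and its level ran in the same order, at 0.5 and 0.559 CPM, 25.1 and 33.2 CPM, and 154, 127 and 148 CPM. The library kit keeps strand, but the sources used here do not say which strand was counted, so reads of these 2 genes may not have been told apart. The summed level of 7 interstitial macrophage markers ran in the same order, at 59.7 and 68.1 CPM, 208 and 576 CPM, and 977, 1541 and 1728 CPM, but its members did not move together. The complement genes C1qa, C1qb and C1qc were called higher in LPS Fth1-high than in untreated cells, and Lyve1, Cd163 and Mrc1 were called lower. Lyve1 had 19.4 and 14.2 CPM in untreated and 0.813 to 2.16 CPM in LPS Fth1-high libraries, and Cd163 had 4.71 and 6.53 against 0.133 to 0.244 CPM. The part of such cells in the Cxcl16 level was not tested.

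Pf4 was low throughout and its changes did not pass the test. It had 1.96 and 0.373 CPM (47 and 4 counts) in untreated, 0 and 1.13 CPM (0 and 22 counts) in LPS Fth1-low and 2.26, 3.41 and 12.5 CPM (34, 84 and 354 counts) in LPS Fth1-high libraries. The shallow library allows a level of up to 5.02 CPM at its 0 counts, above every other library but the highest. The Fth1-high values were the 3 largest, and the other groups overlapped. Its log2 differences were 2.61 ± 1.1 between the LPS groups (adjusted p = 0.21), 2.30 ± 0.91 for LPS Fth1-high against untreated cells (adjusted p = 0.1) and -0.30 ± 1.11 for LPS Fth1-low against untreated cells (adjusted p = 0.97). The difference between the LPS groups was 9.71 when LPS Fth1-low replicate 2 was dropped and 1.57 when LPS Fth1-high replicate 3 was. That from untreated cells was 4 and 1.64 without untreated replicates 1 and 2 and 1.23 without LPS Fth1-high replicate 3, none of these called. Platelet and megakaryocyte markers (11 genes) summed to 23.9 and 7.55 CPM in untreated, 5.02 and 11.4 CPM in LPS Fth1-low and 6.9, 4.51 and 5.62 CPM in LPS Fth1-high libraries, where Gp1bb, Gp5 and Gp9 were each at 0 in 1 library, and in the shallow library 10 of the 11 were at 0. Of the 7 tested, 6 had a negative log2 difference between LPS Fth1-high and untreated cells. Gp6 went the other way, at 0.875 and 0.186 CPM in untreated and 0 and 0.463 CPM in LPS Fth1-low libraries. In LPS Fth1-high libraries Gp6 was at 3.18, 2.15 and 1.98 CPM. The part of platelets in the Pf4 level was not tested. Ppbp, the neighbouring chemokine of platelet granules, had 4, 1 and 14 counts in the LPS Fth1-high libraries, in which Pf4 was highest, and was 3.52 ± 1.00 lower there than in untreated cells on the log2 scale (adjusted p = 0.03). That Ppbp call was lost without untreated replicate 1 (log2 -1.90, adjusted p = 0.4) and without LPS Fth1-high replicate 1 or 2 (adjusted p = 0.061 and 0.065), and it was -4.24 and -4.44 without untreated replicate 2 and LPS Fth1-high replicate 3.

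**Figure D3:**
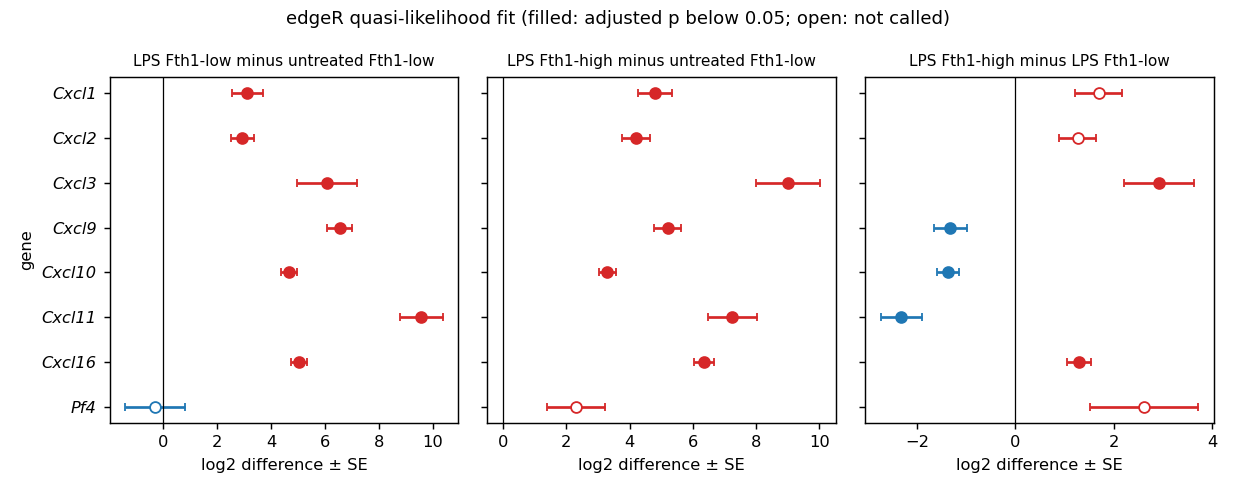
Log2 differences of the 8 ligands with their standard errors from the quasi-likelihood fit, in 3 panels for the 3 comparisons, with filled points where the adjusted p is below 0.05. In all, 7 of 8 points are filled and to the right in both comparisons with untreated cells, while between the LPS groups Cxcl9, Cxcl10 and Cxcl11 lie left of 0 and the other 5 right of it. The Cxcl11 differences from untreated cells are fitted values against a single count and no measure of size.

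Summed over the 8 ligands, the LPS groups had similar amounts of CXC transcript and different kinds. The sum was 108 and 177 CPM in untreated, 2774 and 3172 CPM in LPS Fth1-low and 2811, 3654 and 3445 CPM in LPS Fth1-high libraries, so both LPS groups were far above the untreated one and overlapped each other. Cxcl9, Cxcl10 and Cxcl11 together supplied 42.4% (95% Wilson interval 40.4 to 44.5) and 31.8% (29.6 to 34) of the counts of the 6 ligands of both chromosome 5 groups without Pf4 in untreated libraries. That share was 82% (80 to 83.9) and 69.9% (69.6 to 70.3) in LPS Fth1-low libraries and 39.4% (38.9 to 40), 34% (33.7 to 34.4) and 24% (23.7 to 24.3) in LPS Fth1-high libraries. The LPS Fth1-low mean was 76 ± 8.56% (SD, n = 2), against 37.1 ± 7.5% in untreated (n = 2) and 32.5 ± 7.81% in LPS Fth1-high libraries (n = 3). The untreated and Fth1-high shares overlapped, and both lay below the Fth1-low ones. Intervals cover counting error only.

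**Figure D4:**
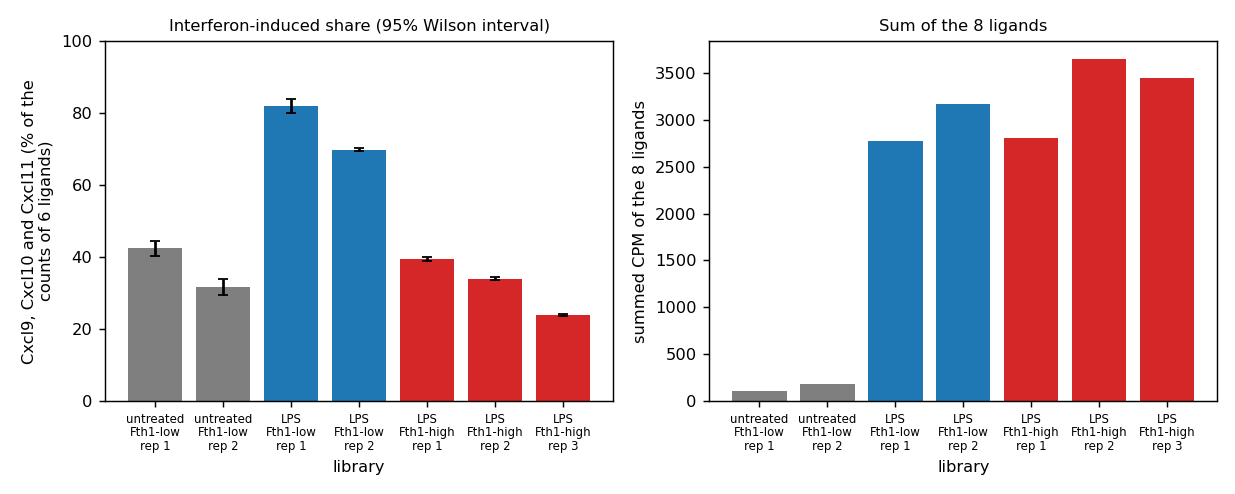
Left, the percentage of the counts of Cxcl1, Cxcl2, Cxcl3, Cxcl9, Cxcl10 and Cxcl11 that came from the interferon-induced Cxcl9, Cxcl10 and Cxcl11 in each library, with 95% Wilson intervals. Right, the summed CPM of the 8 ligands per library; the 5 LPS libraries lie between 2774 and 3654 CPM on the right, while on the left the LPS Fth1-low bars (82% and 69.9%) stand above all others.

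Of 7 other CXC ligands, 4 passed the filter, and none was called between the LPS groups (median log2 difference -1.38 against 0.04 over all genes) or between LPS Fth1-low and untreated cells. Only Ppbp was called against untreated cells in the Fth1-high gate, as given above. Of 8 receptors 6 passed. Cxcr3, the receptor of the interferon-induced ligands, had 59 and 13 counts in untreated, 0 and 59 in LPS Fth1-low and 141, 243 and 345 in LPS Fth1-high libraries. It was 10.5 ± 1.51 CPM in LPS Fth1-high against 1.83 ± 0.88 CPM in untreated cells (log2 2.47 ± 0.52, adjusted p = 0.0073) and 2.06 ± 0.57 higher in LPS Fth1-high than Fth1-low cells without passing (adjusted p = 0.06). Without untreated replicate 2 the first difference was 2.10 (adjusted p = 0.066), and without replicate 1 it was 3.10 (adjusted p = 0.02). Cxcr2 had at most 83 counts in a library and Cxcr6, the receptor of Cxcl16, at most 93.

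The list of 14 genes that process these ligands or control decay of their mRNAs, all tested, held 3 called lower and none higher in LPS Fth1-high than Fth1-low cells (median -0.19), where 4.57% of all genes were called lower and 3.68% higher. Dpp4, a surface peptidase that trims the Cxcr3 ligands at their amino end and weakens their action, had 58.1 and 85 CPM in untreated, 25.1 CPM (15 counts) and 27.4 CPM in LPS Fth1-low and 3.65, 0.935 and 3.96 CPM in LPS Fth1-high libraries. No groups overlapped. Dpp4 was 9.44-fold lower in Fth1-high than Fth1-low cells after LPS (log2 -3.24 ± 0.50, adjusted p = 0.0056, and 0.13 without LPS Fth1-low replicate 2). Srgn, the core protein of serglycin, on which chemokines are stored in granules, was 478 ± 82.1 CPM in LPS Fth1-high against 1304 ± 89.8 CPM in LPS Fth1-low cells (log2 -1.45 ± 0.22, adjusted p = 0.004). The third was Mmp8, a collagenase, which lies outside the naming rule and was chosen after its values were seen (log2 -2.53 ± 0.46, adjusted p = 0.011, and -1.54 with 0.16 without LPS Fth1-low replicate 2). Against untreated cells, Zfp36l1, which speeds the decay of AU-rich mRNAs, was the only one called in LPS Fth1-low cells, at 356 ± 21.9 against 109 ± 42.4 CPM (log2 1.70 ± 0.28, adjusted p = 0.01, 0.077 when untreated replicate 1 was left out and 0.052 when LPS Fth1-low replicate 1 was). In LPS Fth1-high cells 5 were higher and 4 lower than in untreated cells (12.4% and 11.9% of all genes), Zfp36l2 among the latter (log2 -1.56 ± 0.25, adjusted p = 0.0018). Of the Cxcl16-releasing proteases, Adam10 was not called in any of the 3 comparisons, and Adam17, also outside the rule, was 521 ± 55.6 CPM in LPS Fth1-high against 211 ± 27 CPM in untreated cells (adjusted p = 0.006, and 0.072 without untreated replicate 1).

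Among 17 tested genes of interferon signalling, 4 were called higher and none lower in LPS Fth1-low than untreated cells, against 2.99% and 0.629% of all genes. Socs1 and Socs3, feedback inhibitors of cytokine receptors, rose by 3.41 ± 0.49 (adjusted p = 0.0048) and 1.92 ± 0.27 (adjusted p = 0.0037), and Jak2, a kinase of the interferon gamma receptor, by 1.19 ± 0.27 (adjusted p = 0.042). Each of the 3 was lost without untreated replicate 1, with adjusted p of 0.055, 0.068 and 0.33, and Jak2 in 8 of 18 alternatives. Socs1 was 2.56 and 4.16 without LPS Fth1-low replicates 1 and 2. The fourth was Irf1, a transcription factor induced by interferon gamma that lies outside the naming rule and was chosen after its values were seen. Irf1 had 241 and 259 CPM in untreated, 827 and 865 CPM in LPS Fth1-low and 481, 397 and 337 CPM in LPS Fth1-high libraries, the order of the groups that Cxcl9, Cxcl10 and Cxcl11 also had. It rose by 1.76 ± 0.24 in LPS Fth1-low cells (adjusted p = 0.0034) and was 1.06 ± 0.21 lower in LPS Fth1-high than Fth1-low cells on the log2 scale (adjusted p = 0.014). The rise was lost without untreated replicate 1 (adjusted p = 0.056) and the difference between the LPS groups without LPS Fth1-high replicate 2 or 3 (adjusted p = 0.056 and 0.072). The only other gene of the list called between the LPS groups was Ifngr1, a chain of the interferon gamma receptor. Of the 17 genes, 2 were thus called lower in Fth1-high cells and none higher, against 4.57% and 3.68% of all genes. Ifngr1 was at 185 ± 15.2 CPM in Fth1-high, 428 ± 198 CPM in Fth1-low and 1052 ± 59.8 CPM in untreated cells. Its difference between the LPS groups (log2 -1.23 ± 0.27, adjusted p = 0.024) was -0.63 with an adjusted p of 0.11 without LPS Fth1-low replicate 2, and it was also lost without any 1 of the Fth1-high libraries (adjusted p = 0.061 to 0.071).

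Of 21 genes of Toll-like receptor and NF-kB signalling, 7 were called higher and none lower in LPS Fth1-low than untreated cells (2.99% and 0.629% of all genes), with a median log2 difference of 0.73 against -0.05 over all genes. Tnf and Il1a, cytokines that feed this pathway, rose by 3.63 ± 0.37 (adjusted p = 0.00059) and 6.44 ± 0.75 (adjusted p = 0.0022). Without LPS Fth1-low replicate 2 these rises were 2.98 and 5.10, and that of Il1a was 7.69 without untreated replicate 1, all called. Tlr4, the LPS receptor, rose by 1.48 ± 0.26 (adjusted p = 0.013) and Tnfaip3, an inhibitor of NF-kB signalling, by 1.49 ± 0.27 (adjusted p = 0.014). Both calls were lost without either untreated library or without LPS Fth1-low replicate 2, with adjusted p of 0.051 to 0.17, and the last of these left Tlr4 at 0.89. Between the LPS groups 1 was called higher and 4 lower in Fth1-high cells, against 3.68% and 4.57% of all genes. Il1a was the higher one, with 55.2 and 202 CPM in LPS Fth1-low and 423, 761 and 748 CPM in LPS Fth1-high libraries (log2 2.23 ± 0.57, adjusted p = 0.049), and its call was lost in 6 of 18 alternatives. Without LPS Fth1-low replicate 1 it was 1.65 (adjusted p = 0.13), and without replicate 2 it was 3.55 (adjusted p = 0.03). The lower ones, outside the rule and chosen after their values were seen, were the NF-kB subunit genes Nfkb1 and Rel, the adaptor Myd88 and the NF-kB cofactor Bcl3 (log2 -0.82, -1.22, -0.84 and -1.09, adjusted p = 0.046, 0.018, 0.047 and 0.009). Bcl3 kept its call in all 18 alternatives, whereas the calls of Nfkb1, Rel and Myd88 were lost in 10, 4 and 9, among them without LPS Fth1-low replicate 2 (adjusted p = 0.16, 0.073 and 0.19). Tnf was at 214 ± 102 CPM in LPS Fth1-low and 126 ± 11 CPM in LPS Fth1-high cells and was not called (adjusted p = 0.15).

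**Figure D5:**
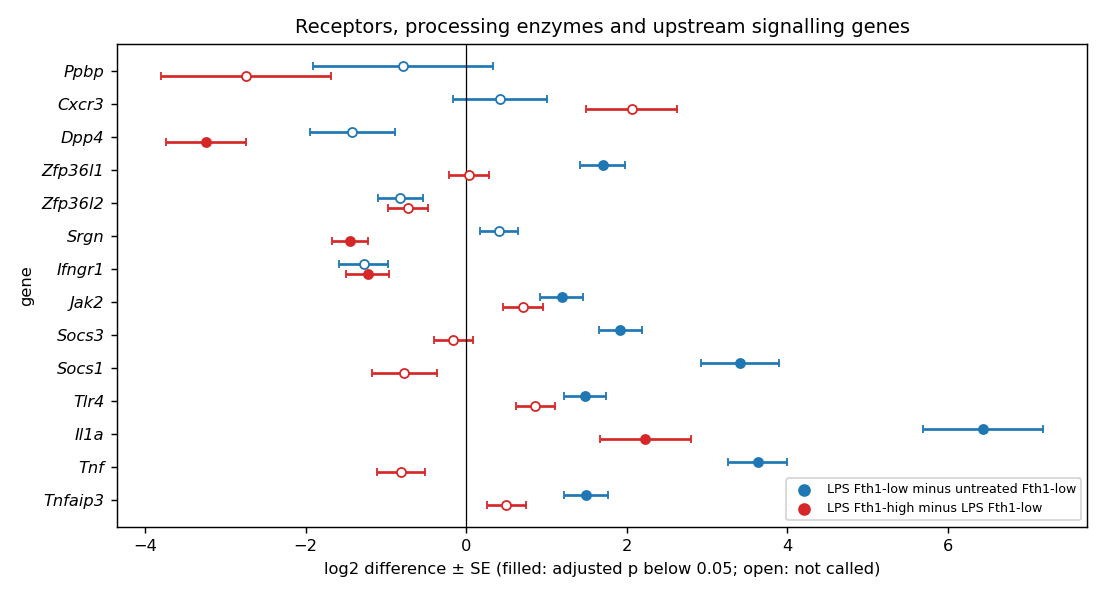
Log2 differences with standard errors of 14 genes of the surrounding lists chosen by a rule of smallest adjusted p, for LPS Fth1-low minus untreated Fth1-low (blue) and LPS Fth1-high minus LPS Fth1-low (red), with filled points where the adjusted p is below 0.05. Il1a is filled and right of 0 in both, whereas Dpp4, Srgn and Ifngr1 are filled and left of 0 between the LPS groups.

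The genes whose log2 CPM ran most like each ligand across the 7 libraries were searched among the 8084 genes averaging 10 CPM or more. The libraries fall into 3 groups, so these coefficients mostly describe group levels and carry no test. For Cxcl16 they were Inhba, an activin subunit, Mmp14, a membrane metalloprotease, and Anpep, an aminopeptidase (Pearson r = 0.9997, 0.9995 and 0.9966). For Cxcl2 they were Ass1, Stk38l and Htr7 (0.9969, 0.9956 and 0.994), for Cxcl1 Epb41l2, Mdfic and Jak2 (0.9941, 0.9939 and 0.9923) and for Cxcl3 Akr1b10, Basp1 and Clec4n (0.9915, 0.9904 and 0.9903). Cxcl9 ran with Ppa1, the interferon-induced GTPase gene Gbp5 and C4b (0.9954, 0.9946 and 0.9888). The GTPase gene Ifi47, another interferon target, came first for both Cxcl10 and Cxcl11 (0.9802 and 0.9899). It was followed by Sema6b and the chemokine Ccl4 for Cxcl10 (0.9799 and 0.9787) and by Ppa1 and Apobec3 for Cxcl11 (0.9838 and 0.9828). Pf4 ran most like Sae1, Pebp1 and Qdpr (0.9903, 0.981 and 0.9793).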

How the data were processed

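Gene counts of 7 RNA-seq libraries were used as the authors deposited them, whole numbers per gene and library. The submitters' processing notes name DRAGEN, DESeq2 and build mm10. For versions, annotation and counted strand: not given in the sources used here. A stranded kit was used, per the labels' protocols, with 25 ng of RNA, 15 PCR cycles and 58 bp paired reads. The table held 26130 genes, 6880 without counts, and 0 sample columns were unused.

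In R 4.3.3, edgeR 4.0.16 fitted 1 robust quasi-likelihood model of the 3 groups to 13665 genes that passed filterByExpr, with TMM scaling and 4 residual degrees of freedom. The 3 pairwise differences were tested two-sided, with Benjamini-Hochberg adjustment over all genes tested. A standard error is the log2 difference over the square root of F. CPM is TMM-scaled. RPKM divides it by the exon length of GENCODE vM21, which matched 96.2% of symbols. Depth was 637787 to 27997007 counts, and intervals and floors of 3 counts cover counting error only. The script was tested on simulated data.

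The 8 members and all lists were chosen with earlier results of these data known. Besides the members, up to 4 called genes per list with the smallest adjusted p were named, and the 3 genes most like each member by Pearson correlation of log2 CPM. Promoter patterns were searched on both strands. Alternatives were other scalings, DESeq2 1.42.0, voom of limma 3.58.1, other filters, subsets of libraries or genes, and the replicate number as a block. Shared replicate numbers do not come from a stated shared animal, so they were not used to pair libraries.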

Additional observations from a re-analysis of the deposited data

How the results depend on the processing

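Across the 18 alternatives run, Cxcl10, Cxcl11 and Cxcl16 kept their calls in all 3 comparisons. At 637787 counts, LPS Fth1-low replicate 1 held 4, 4 and 0 counts of Cxcl1, Cxcl3 and Pf4, which limits what it can show of them. Members called higher in LPS Fth1-high than LPS Fth1-low cells numbered 2, against 4 with DESeq2 (Cxcl1 and Cxcl2 added), 1 with scaling by total count or with ribosomal RNA and mitochondrial genes left out (Cxcl3 lost), and 1 to 3 with each library left out. Members called higher in LPS Fth1-low than untreated cells numbered 7, against 5 with no filter beyond 1 count (Cxcl1 and Cxcl3 lost), 6 with either voom fit (Cxcl3 lost) and 4 to 7 with each library left out. Pf4 reversed in that comparison without untreated replicate 1 (log2 1.4, adjusted p = 0.83), within a range of -7.42 to 1.4 with each library left out.

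Leaving out each library, genes called higher and lower between the LPS groups ranged from 263 to 682 and from 379 to 602 (503 and 625 with all 7). For LPS Fth1-low against untreated cells the ranges were 179 to 386 and 11 to 249 (409 and 86), and for LPS Fth1-high against untreated cells 955 to 2184 and 948 to 2012 (1690 and 1625). For LPS Fth1-low against untreated cells, DESeq2 called 628 higher and 190 lower, and voom with sample weights 47 lower. The mean Cxcl9 level in LPS Fth1-low cells was 1068 CPM, 1086 with RLE scaling and 1047 with total counts, and Cxcl16 in untreated cells 11.3 CPM with total counts, against 11. The cause of these changes was not tested.

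Correlations of same-numbered libraries' deviations from their group means were -0.04, 0.1, -0.04, 0.29, 0.27 and 0.09. Those of differently numbered libraries were -0.29 to 0.28. In a group of 2 libraries the deviations are mirror images of each other, so these values cannot show whether the numbers pair libraries. The numbers were not taken to pair libraries because no shared animal is stated. With the replicate number as a block, 4 members were called higher between the LPS groups (Cxcl1 at an adjusted p of 3e-05 and Cxcl2 at 0.0052 were added), 1328, 741 and 3119 genes were called in the 3 comparisons (1128, 495 and 3315 without), and 165 genes were lower in LPS Fth1-low than untreated cells. Other scalings moved the median gene by at most 0.06 on the log2 scale.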
